A study of Homo sapiens with 12 samples.

Results

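The accessible sites described here lay on the alternate haplotype sequences of the human genome build GRCh38 (hg38), leaving out those of chromosome 6. They were the lines of the deposited peak list whose sequence name ended in _alt and did not start with chr6_. The rule gave 2423 summits of the 188019 in the list (1.29%, Wilson 95% confidence interval 1.24 to 1.34), in 1472 intervals on 191 alternate sequences of 22 parent chromosomes. Accessibility came from ATAC-seq of HT1080 cells, an established human fibrosarcoma line, and a transposase that cuts open DNA marks the sites. The cells had migrated for 48 h in gels of rat tail type I collagen, and the 3 groups differed in how dense the gel was. The low group had 0.3 mg/mL, the medium group 1 mg/mL and the high group 1.7 mg/mL, each with 4 libraries, 12 in all. All 3 groups were treated with 20 µM GM6001, which blocks a broad range of matrix metalloproteinases, so no group was free of it. Nothing in the labels says that the 4 libraries of a group came from separate cultures. The list analysed was 1 list pooled over the series, with no value per library. Nothing below is therefore a comparison between collagen concentrations, and the values have no replicates and an unknown depth per library.

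An alternate haplotype is another version of a stretch of a chromosome that the reference assembly carries beside the assembled chromosome, because people differ there in ways that a single sequence cannot show. Such stretches include gene families that vary in copy number, such as the immune receptor genes of chromosome 19, and inversions such as that on the long arm of chromosome 17. Reads from a stretch that is alike on both versions can align to either, so a peak on an alternate sequence and its counterpart on the parent chromosome may draw on the same cells' DNA.

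The sequences below show the sites on which the results turn. Each is the 250 bases upstream of a gene's annotated start on the assembled chromosome, from RefSeq (GRCh38.p14), read 5′ to 3′ on the gene's strand, with the 21 bases around the ATAC-seq summit in capitals. The letters of the alternate copies were not used here. The first 5 belong to genes whose summit recurred on an alternate sequence with nearly the same pileup, from 5 different sequences. RRN3 is shown because its matched summits differed most. RPS9 and LENG1 are shown because they recurred on 9 alternate sequences, RPS9 at a lower pileup and LENG1 at a like one.
CEP20: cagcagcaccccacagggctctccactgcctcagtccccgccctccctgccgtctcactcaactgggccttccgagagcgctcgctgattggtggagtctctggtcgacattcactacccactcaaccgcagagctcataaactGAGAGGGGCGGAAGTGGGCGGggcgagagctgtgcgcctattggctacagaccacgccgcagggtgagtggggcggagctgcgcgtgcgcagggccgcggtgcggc
PRPF8: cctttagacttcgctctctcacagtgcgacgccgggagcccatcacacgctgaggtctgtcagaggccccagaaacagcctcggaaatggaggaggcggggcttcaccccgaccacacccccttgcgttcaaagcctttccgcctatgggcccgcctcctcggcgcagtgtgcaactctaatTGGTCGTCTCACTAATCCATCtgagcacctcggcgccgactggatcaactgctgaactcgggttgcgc
UBR7: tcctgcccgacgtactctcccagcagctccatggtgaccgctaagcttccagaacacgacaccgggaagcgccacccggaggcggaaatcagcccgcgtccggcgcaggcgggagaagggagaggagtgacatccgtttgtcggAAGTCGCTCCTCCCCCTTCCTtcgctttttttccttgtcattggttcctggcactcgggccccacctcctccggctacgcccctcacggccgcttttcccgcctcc
DNAJA3: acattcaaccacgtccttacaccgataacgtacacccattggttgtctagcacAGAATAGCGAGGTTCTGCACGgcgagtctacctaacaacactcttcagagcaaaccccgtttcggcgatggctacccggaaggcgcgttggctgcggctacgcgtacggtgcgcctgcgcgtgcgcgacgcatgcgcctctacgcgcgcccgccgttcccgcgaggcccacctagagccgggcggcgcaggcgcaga
SLC2A11: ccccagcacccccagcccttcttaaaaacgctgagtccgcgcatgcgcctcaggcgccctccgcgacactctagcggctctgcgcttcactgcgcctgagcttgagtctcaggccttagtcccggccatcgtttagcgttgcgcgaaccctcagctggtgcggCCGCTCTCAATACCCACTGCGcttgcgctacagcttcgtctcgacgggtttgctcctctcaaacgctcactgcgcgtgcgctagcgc
RRN3: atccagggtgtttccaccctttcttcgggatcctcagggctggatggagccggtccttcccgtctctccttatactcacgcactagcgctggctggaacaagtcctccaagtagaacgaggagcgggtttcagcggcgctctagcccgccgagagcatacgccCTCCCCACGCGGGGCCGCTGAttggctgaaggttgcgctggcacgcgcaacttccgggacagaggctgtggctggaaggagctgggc
RPS9: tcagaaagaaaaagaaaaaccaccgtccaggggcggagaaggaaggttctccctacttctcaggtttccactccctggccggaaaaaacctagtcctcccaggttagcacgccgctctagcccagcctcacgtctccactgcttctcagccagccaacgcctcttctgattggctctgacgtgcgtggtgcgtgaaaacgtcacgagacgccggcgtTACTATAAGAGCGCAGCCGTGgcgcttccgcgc
LENG1: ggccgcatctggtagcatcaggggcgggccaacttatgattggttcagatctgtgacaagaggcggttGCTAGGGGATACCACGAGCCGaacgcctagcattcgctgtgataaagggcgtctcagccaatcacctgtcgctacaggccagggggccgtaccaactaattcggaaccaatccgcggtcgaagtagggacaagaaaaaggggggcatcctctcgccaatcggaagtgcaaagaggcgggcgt
The promoters lay at chr16:15888604-15888853 (CEP20, minus strand), chr17:1684868-1685117 (PRPF8, minus strand), chr14:93207006-93207255 (UBR7, plus strand), chr16:4425618-4425867 (DNAJA3, plus strand), chr22:23857625-23857874 (SLC2A11, plus strand), chr16:15094273-15094522 (RRN3, minus strand), chr19:54200608-54200857 (RPS9, plus strand) and chr19:54159722-54159971 (LENG1, minus strand). The matched promoters, set out below, numbered 33 (some overlapping, over 26 summits). They had a median GC content of 69.6%, against 58.0% over all 35116 promoter windows of the same length and 66.8% over the 9852 other windows that held a summit. The GC box GGGCGG, on either strand, was in 26 of the 33 (78.8%), against 42.6% of all windows and 71.1% of the other windows with a summit. The CCAAT box was in 17 (51.5%), against 32.0% and 37.9%, and the ETS site CCGGAAG in 5 (15.2%), against 8.52% and 18.01%. Neither the AP-1 site TGANTCA (6.57% of all windows, 6.21% of those with a summit) nor the TATA box TATAAA (10.7% and 3.83%) was in any of the 33. These are matches of letters in a window, not sites of binding. Some matched summits also lay within 1000 bp of microRNA genes. A microRNA is a short RNA that silences transcripts through its seed, bases 2 to 8, which is in capitals. The mature sequences of MIR484 and MIR22, from RefSeq (GRCh38.p14), are shown as examples from 2 of the placed sequences, chosen after their values were seen. No seed is shared among them.
hsa-miR-484: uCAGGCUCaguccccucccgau
hsa-miR-22-3p: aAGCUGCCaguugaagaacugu
hsa-miR-22-5p: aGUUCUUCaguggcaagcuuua
The summit near MIR484 on chr16_KI270853v1_alt had a pileup of 597, against 583 on chromosome 16, and that near MIR22 on chr17_KI270861v1_alt had 661, against 692 on chromosome 17.

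Fold enrichment is the authors' ratio of a summit over the local background, and pileup is the number of overlapping fragments at the summit, recovered from the deposited enrichment and p-value. On the alternate sequences the median enrichment was 4.74 (95% interval of the median 4.44 to 4.98, quartiles 2.59 and 8.21, range 1.44 to 24.3). The median −log10 q was 41.8 (37.5 to 45.5) and the median pileup 119 fragments (113 to 126, range 35 to 4530). The 180794 summits of the assembled chromosomes had a median enrichment of 4.27, a median −log10 q of 31.2 and a median pileup of 100. The 808 summits on the alternate sequences of chromosome 6, which carry the major histocompatibility complex, stood higher, at 5.65, 61.5 and 149. Intervals over 10 kb held 72685 of the summits on assembled chromosomes and 342 of those on alternate sequences. Within intervals of at most 10 kb the medians were 4.41 on the alternate and 3.93 on the assembled sequences for enrichment, and 110 and 107 for pileup. The intervals of these medians cover the choice of summits within this list and no replicate spread, and no test was made over regions.

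Chromosome 17 contributed most, with 386 summits on 15 alternate sequences (15.9% of the summits described). Chromosome 1 followed with 231 on 11 sequences, chromosome 15 with 182 on 9, chromosome 2 with 180 on 13 and chromosome 5 with 162 on 11. Chromosome 9 had the fewest, 11 summits on 4 sequences. The order by strength was another one. The highest median enrichment was on the 46 summits of chromosome 22 (8.96) and the 132 of chromosome 19 (7.46), and the lowest was on the 21 summits of X (2.53) and the 137 of chromosome 8 (2.58). The median −log10 q was highest for chromosome 1 (190), followed by chromosome 22 (111) and chromosome 19 (106), and lowest for X (7.73) and chromosome 8 (9.04). The value of chromosome 1 rested on 1 sequence, chr1_KI270762v1_alt, which held 167 of its 231 summits.

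**Figure D1:**
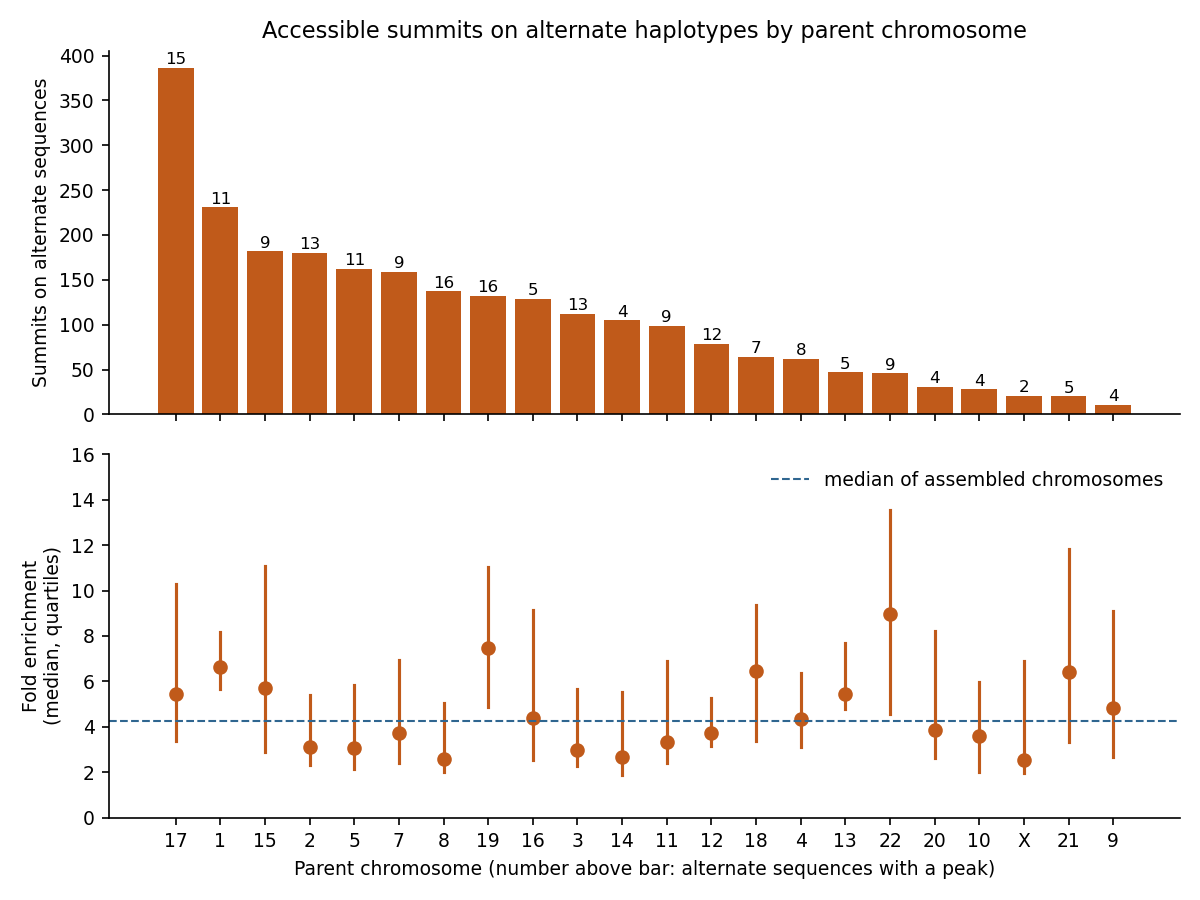
Upper panel: number of summits on the alternate sequences of each parent chromosome (bars), with the number of alternate sequences that had a peak above each bar. Lower panel: the authors' fold enrichment of those summits (points, median; lines, quartiles), with the median of the assembled chromosomes, 4.27, as a dashed line. Chromosome 17 has the most summits (386), while chromosomes 22 and 19 have the highest median enrichment.

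The 12 sequences with the most summits held 898 (37.1%). The sequence with most, chr1_KI270762v1_alt, had 167 summits in 12 intervals, and 151 of them lay in 2 intervals of 60482 and 26756 bp. In the longer of these the median pileup was 535 over a median local background of 76.3 fragments, whereas the lowest background in the list, the genome-wide one, was 20.3. Its peaks thus formed a block, with a median enrichment of 6.60. The next, chr15_KI270905v1_alt, had 106 summits in 96 intervals, none over 1843 bp, spread as separate sites with a median enrichment of 6.43 and a pileup up to 2317. The sequence chr17_KI270857v1_alt was of the same kind, with 105 summits in 87 intervals and a median enrichment of 6.19. On chr16_KI270853v1_alt 92 summits lay in 72 intervals, with a median of 4.06. The sequences chr14_KI270846v1_alt and chr17_GL383563v3_alt had 61 summits each, at medians of 2.30 and 4.74. On chr2_KI270772v1_alt, 39 of 58 summits lay in 1 interval of 21608 bp with a median background of 101 fragments and a median enrichment of 2.84. The remaining 5 of the 12 were chr17_KI270908v1_alt (53 summits, median enrichment 5.91), chr2_KI270894v1_alt (51, 2.48), chr7_KI270805v1_alt (50, 3.81), chr17_GL000258v2_alt (48, 8.84) and chr7_KI270803v1_alt (46, 3.53). The sequence chr17_GL000258v2_alt had the highest median of the 12. At the other end, 23 sequences carried a single summit and 74 carried fewer than 5, and the median sequence had 6. In all, 11 intervals exceeded 10 kb, on 10 sequences, and 47.6% of the summits had a local background at the genome-wide level, within 0.2% (Wilson 95% interval 45.6 to 49.6), against 53.6% on the assembled chromosomes. Within intervals of at most 10 kb the order was the opposite, with 49.9% on the alternate sequences (Wilson 95% interval 47.7 to 52.0) and 37836 of 108109 summits on the assembled ones (34.7 to 35.3).

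The 10 summits with the highest enrichment were not on the 12 sequences with the most summits, apart from chr15_KI270905v1_alt. The margin was small, since chr17_KI270857v1_alt and chr16_KI270853v1_alt reached 19.32 and 19.17, just under the last of the 10 at 19.45. The highest enrichment, 24.3, was at position 159870 of chr3_KI270784v1_alt (interval chr3_KI270784v1_alt:159733-160201, −log10 q 1050, pileup 1073). Next was position 45969 of chr21_KI270872v1_alt with 21.1, which also had the highest pileup of all the summits described, 4530, and the highest −log10 q, 4134. The other 8 of the 10 highest had enrichments of 19.4 to 21.05 and pileups of 541 to 1820. They lay on chr15_GL383554v1_alt, chr15_KI270905v1_alt, chr22_KI270875v1_alt, chr5_KI270897v1_alt, chr1_GL383518v1_alt, chr8_KI270821v1_alt, chr18_GL383571v1_alt and chr15_KI270851v1_alt. All 10 intervals were short, from 469 to 920 bp.

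Which assembled site each alternate summit corresponds to is not in the list, and no alignment between the sequences was used here. Each alternate sequence with at least 5 summits was therefore slid along its parent chromosome, in either orientation, to find the shift at which most of its summits fell within 50 bp of an assembled summit. A sequence counted as placed when at least 5 summits matched, and at least 2 times as many as at the best other position, one over 500 kb away or in the other orientation. Assembled summits in intervals of at most 10 kb were used. Of 117 sequences tried, 11 were placed, all in the same orientation as the parent. The number depended on the rule. It was 1 with assembled summits of all intervals, 7 within 100 bp, 14 within 20 bp, and 26 when pileups within 25% were also required. They came from chromosomes 1, 2, 10, 14, 16, 17 and 22. The same procedure placed 8 of 10 alternate sequences of chromosome 6, the 7 sequences GL000250v2 to GL000256v2 at shifts that put them over the major histocompatibility complex, where they belong. The other 106 were not placed, which is no sign that they have no counterpart. A sequence with few summits, or whose summits are spaced differently from the parent's, may not pass.

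The clearest placement was that of chr14_KI270847v1_alt, where 32 of 37 summits matched chromosome 14 between 92911627 and 94346593 and the best other position matched 6. On both copies the summits left a stretch of 609 kb empty, from 93333131 to 93941806 on chromosome 14, with 0 summits on either. The last summit of the alternate sequence, with a pileup of 432, did not match at the common shift, while a chromosome 14 summit with a pileup of 441 lay 2011 bp from where it would fall. On chr22_KI270876v1_alt 9 of 10 summits matched (best other position 4), on chr22_KI270879v1_alt 14 of 18 (5), on chr1_KI270763v1_alt 12 of 16 (5), on chr10_KI270825v1_alt 8 of 11 (4), on chr17_KI270861v1_alt 15 of 21 (6) and on chr16_KI270855v1_alt 14 of 20 (6). In 4 longer or denser sequences a smaller part matched. The sequence chr17_KI270857v1_alt matched 29 of 105 summits, all between its positions 2450207 and 2860636 and over 410 kb of chromosome 17 (best other position 11). On chr16_KI270853v1_alt 20 of 92 matched over 1216 kb (10), on chr14_KI270846v1_alt 23 of 61 (8) and on chr2_KI270894v1_alt 28 of 51 (14). In all, 3 of the 11 sequences, chr2_KI270894v1_alt, chr16_KI270853v1_alt and chr10_KI270825v1_alt, were exactly at the limit of 2 times. Of the 102 genes that the matched stretch of chr14_KI270846v1_alt spans on chromosome 14, 86 were immunoglobulin heavy chain genes and none was annotated as protein-coding. Its matched summits were the weakest of the 11 sequences, with alternate pileups of 38 to 104 and a median of 53.

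**Figure D2:**
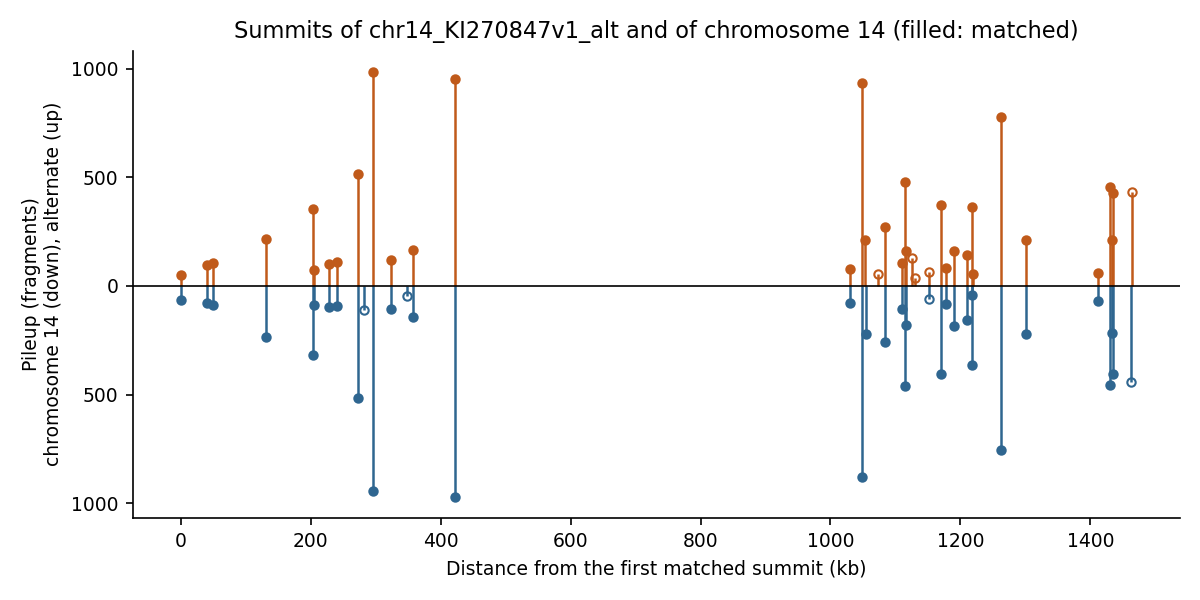
Pileup of the summits of chr14_KI270847v1_alt (upward) and of chromosome 14 (downward), against the distance from the matched summit that comes earliest on chromosome 14, in kb. Filled points are the 32 matched summits and open points the unmatched ones. The heights mirror each other, up to 984 on the alternate sequence, and a stretch of 609 kb is empty on both.

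Across the 11 sequences 204 summits matched of 442. At these sites the pileup on the alternate copy and that on the assembled chromosome were close to equal. The median ratio of alternate to assembled pileup was 1.00 (95% interval of the median 0.988 to 1.01, quartiles 0.935 and 1.06). The alternate pileup was the higher in 100 pairs, the lower in 100 and the same in 4. In 189 pairs (92.6%) the larger pileup exceeded the smaller by at most 25%. The Wilson 95% interval of the alternate copy's share of the summed pileup contained 50% in 191 pairs (93.6%). This interval covers counting error only, and fragments counted after PCR are not independent molecules. Of the 71 pairs with a summed pileup of at least 400, 69 were within 25%. The median ratio of the single sequences ran from 0.984 on chr17_KI270861v1_alt and chr2_KI270894v1_alt to 1.05 on chr16_KI270855v1_alt. The 159 pairs on the placed alternate sequences of chromosome 6 had a median ratio of 0.991, with 84.3% within 25%. A pair needs a called peak on both copies, and the lowest pileup called was 35, so a site open on only 1 copy cannot appear among the pairs. Of the 238 summits of the placed sequences that did not match, the median enrichment was 3.96 and the median pileup 88.5, against 4.64 and 138.5 for the matched. Whether unmatched summits have a counterpart at another shift, as the last summit of chr14_KI270847v1_alt may, was not determined.

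**Figure D3:**
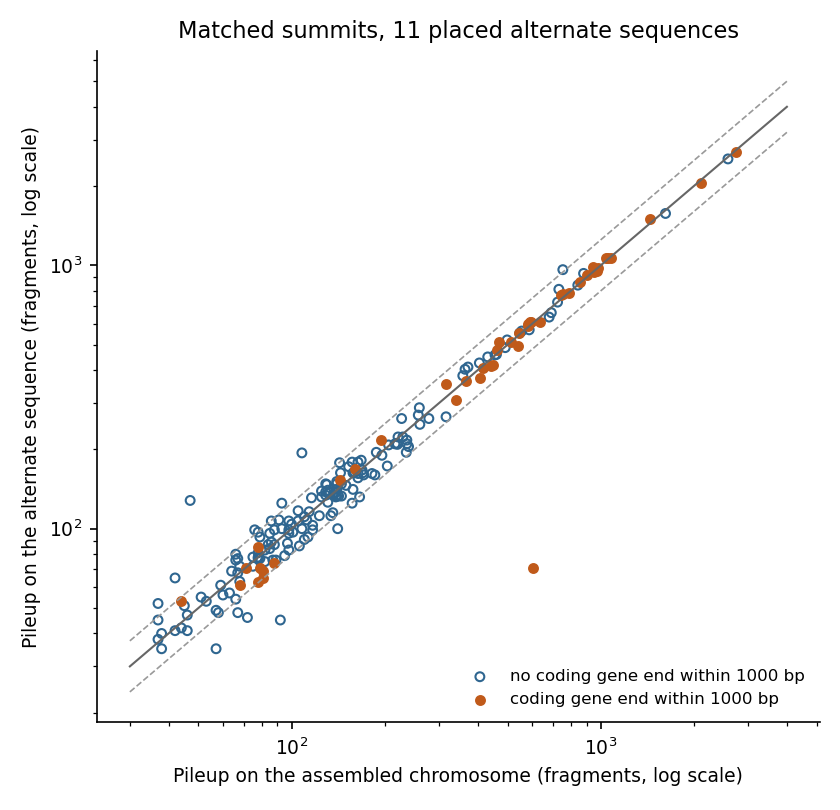
Pileup on the alternate sequence against pileup on the assembled chromosome for the 204 matched summits, both on log scales. Filled points have an end of a protein-coding gene within 1000 bp. The solid line marks equality and the dashed lines a difference of 25%. The points follow the line of equality, with the RRN3 site (71 against 606) far below it.

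Matched summits near coding genes were stronger at the median. The 45 pairs with an end of a protein-coding gene within 1000 bp of the assembled summit had a median alternate enrichment of 11.4 and a median alternate pileup of 510. The other 159 had 4.27 and 131. The median ratio was 1.00 in both sets. Single pairs went the other way. The alternate pileup was 61 at SERPINA6, a coding gene, and 2536 at PKD1P1, with no coding gene end near. Of all 204 matched sites, 34 held the highest assembled summit within 1000 bp of an annotated start of a coding gene. Not all of these were among the 45, since starts of NDE1 and SLC43A2 had matched summits with no coding gene end within 1000 bp. At the 34 sites the median pileup was 582.5 on the assembled and 551 on the alternate copy, with a median sum of 1103. For the 13330 coding starts with a summit over 1 Mb from every placed locus, the median pileup was 797 (quartiles 334 and 1466). Each copy was thus below, and the sum above, the median of starts elsewhere, all well inside its quartiles. Whether reads that fit both copies were kept or shared out was not tested.

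The genes named here are the 30 with the highest alternate enrichment, up to 6 per sequence. CEP20, a centrosomal protein gene, had the highest alternate enrichment of the pairs at a coding gene, 18.96, with a pileup of 977 on chr16_KI270853v1_alt and 978 at position 15888699 of chromosome 16. PRPF8, the gene of a core spliceosome protein, had 1068 on chr17_KI270861v1_alt and 1038 at 1684925 of chromosome 17. PIP4K2B, a phosphoinositide kinase gene, had 2055 on chr17_KI270857v1_alt and 2112 at 38799877 of chromosome 17. That summit was also near the downstream end of CWC25, another splicing factor gene. At the start of CWC25 the pileup was 416 on the alternate and 443 on the assembled copy. DDX24, an RNA helicase gene, lay at the same summit as IFI27L1 on chr14_KI270847v1_alt, with 372 against 406. All of these pairs were within 25%.

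UBR7, of the ubiquitin ligase family, and GON7, of the complex that modifies transfer RNAs, shared a summit with 984 on chr14_KI270847v1_alt and 943 on chromosome 14. PSMB3, a proteasome subunit gene, had 1069 and 1054, and SMARCB1, the gene of a core subunit of the SWI/SNF remodelling complex, 940 on chr22_KI270879v1_alt and 948 on chromosome 22. EPOP, of a Polycomb-associated protein, had 510 and 468. DNAJA3, of a mitochondrial chaperone, had 867 and 857, and PAM16, of the mitochondrial import motor, 612 and 638. CISD3, of an iron-sulfur protein, had 589 and 582 at its start, a summit also near the downstream end of MLLT6. The summit at the start of MLLT6 had only 85 and 78. CEP170 and SDCCAG8, both centrosomal, shared a site with 1499 on chr1_KI270763v1_alt and 1441 on chromosome 1. CORO7, a coronin gene, had 611 and 590, and NDE1, of a dynein partner, shared 597 and 583 with MARF1. NMRAL1 had 496 and 539, and the neighbours BTBD7 and UNC79 shared 950 and 969. NOMO3, which has near-identical copies on the same chromosome, had 554 and 543, values that may hold reads of the other copies.

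Chromosome 22 gave a compact group in chr22_KI270879v1_alt, whose 14 pairs had ratios from 0.926 to 1.03, the narrowest range of the 11. MIF, a cytokine gene, had 921 on the alternate and 900 on the assembled copy, and SLC2A11, a sugar transporter gene, 612 and 596. DDT and DDTL, relatives of MIF, had 408 against 416 and 788 against 787. GSTT2B, a glutathione transferase gene, had 420 and 448. DDT with DDTL, and GSTT2 with GSTT2B, are pairs of near-copies within the locus, so reads may be split between them. The summits at DDT and GSTT2 were the same one. The highest site of the sequence, with 1574 and 1620, had no coding gene end within 1000 bp.

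Some matched sites were picked out here after their values were seen. The highest pileup of all pairs was at WDR81 and MIR22HG, 2700 on chr17_KI270861v1_alt and 2745 on chromosome 17, at the promoter of an endosomal protein gene and the host transcript of MIR22. It was followed by a site at PKD1P1, a pseudogene in a family of near-copies, with 2536 and 2579. The largest disagreement was at RRN3, the gene of an RNA polymerase I initiation factor, whose promoter is printed above. Its summit had a pileup of 606 and an enrichment of 17.5 on chromosome 16, and 71 and 1.96 on chr16_KI270853v1_alt, a ratio of 0.117. RRN3 has pseudogene copies on the same chromosome, and reads may be split among them. This match was the outermost on a sequence placed exactly at the limit of 2 times, and the next match, at 15382867, had a ratio of 1.80. The RRN3 summit lay in the interval 15093971-15094703 on chromosome 16 and in 751419-753183, a longer one, on the alternate. Whether the 2 summits are the same site was not tested. Without RRN3 the other 14 pairs beyond 25% had ratios of 0.489 to 2.72, and 7 of these 15 pairs in all were on chr2_KI270894v1_alt. The largest ratio, 2.72, was there too, with 128 fragments against 47.

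**Figure D4:**
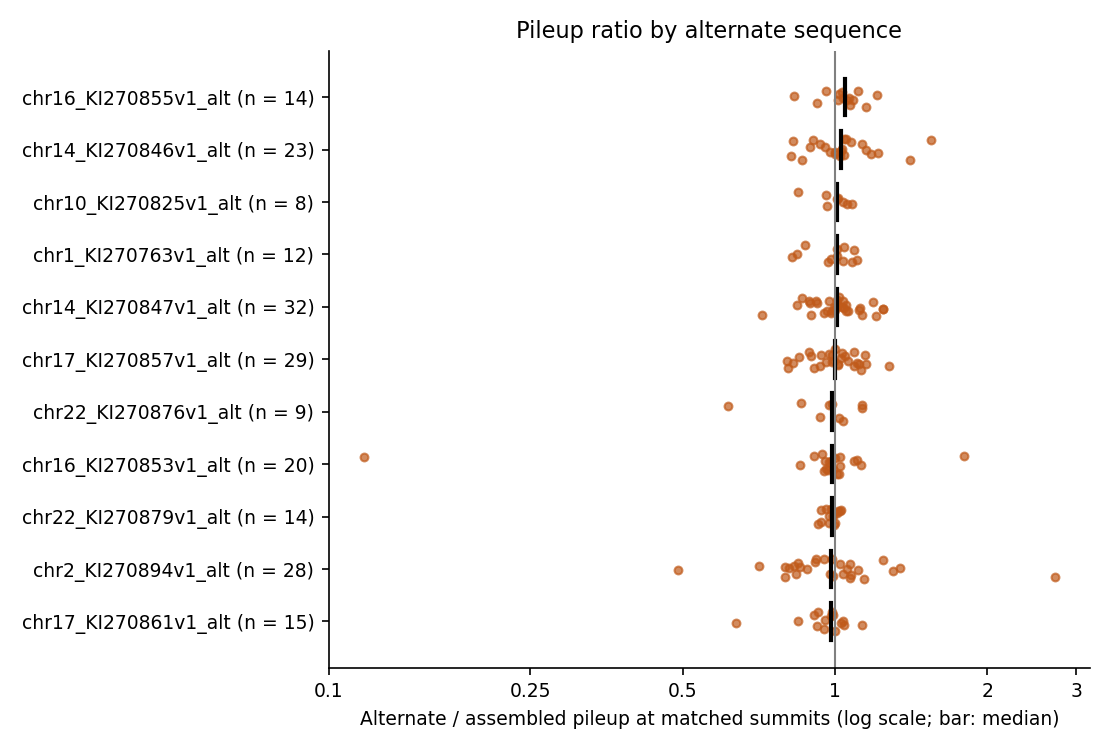
Ratio of alternate to assembled pileup (log scale) at each matched summit, by alternate sequence, with the number of pairs (n). Points are summits, spread vertically only to separate them, and the black bar is the median, which lies between 0.984 and 1.05 on every sequence. The widest spreads are on chr2_KI270894v1_alt and chr16_KI270853v1_alt.

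The leukocyte receptor region of chromosome 19 stood out for how many versions of it the assembly carries. This region holds the LILR, LAIR and KIR genes, receptors of white blood cells that vary in number between people, next to genes used by all cells. Alternate sequences of the same parent with at least 4 summits were slid along each other, again within 50 bp. A pair counted when at least 4 summits matched, and at least 2 times as many as at the best other position. Summit spacing tied together 9 alternate sequences of chromosome 19 (GL949746v1, GL949747v2, GL949748v2, GL949749v2, GL949750v2, GL949751v2, GL949752v1, GL949753v2 and KI270938v1). Of the 463 pairs of alternate sequences of the same parent that were compared, 32 shared summits in this way, and 31 of the 32 were among these 9, out of 36 possible. The other was chr3_KI270779v1_alt with chr3_KI270935v1_alt, which shared 4. The 9 sequences held 99 summits, 9 to 16 each, with a median enrichment of 8.29 and a pileup of 264 at the median. Set on chromosome 19 with a wider tolerance of 500 bp, 75 of these summits fell on 12 sites between 54102824 and 54523572. The first shift of each sequence matched 7 or 8 summits. In 3 sequences a second shift matched 3 or 4 of those left over. Neither shift was compared with the best other position. In all, 7 of the sites had a summit of each of the 9 sequences within 500 bp. Within 200 bp of the sequence's first shift, a limit set after the values were seen, 4 of the 7 did, those of CNOT3, LENG1 with TMC4, RPS9 and site H. The 500 bp tolerance and the region were chosen after the 50 bp search had placed none of the 9 on chromosome 19.

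The pileups at the recurring sites fell into different kinds. At the gene CNOT3, of the complex that shortens messenger RNA tails (summit 54137420), the alternates had 768 to 923 and chromosome 19 had 624, so each of the 9 alternates exceeded the assembled copy. At LENG1 and TMC4 the 9 alternates had 496 to 630 and chromosome 19 had 577, with 4 alternates above it. At PRPF31 and TFPT, a splicing factor gene and its neighbour, they had 142 to 173 and chromosome 19 had 146. All 9 of those summits lay 289 to 426 bp from the site, so they may be another site and no order is read from them. Site H, with no coding gene near, had 153 to 192 against 161, with 8 above. RPS9, the gene of a ribosomal protein, was the reverse, with 122 to 188 on the 9 alternates against 610 on chromosome 19, all 9 below. The RPS9 enrichment was 5.77 to 8.86 on the alternates and 18.3 on the assembled copy.

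At MBOAT7, a phospholipid acyltransferase gene, and TSEN34, a tRNA splicing endonuclease gene, the summits of the alternates did not all lie at the same place. Chromosome 19 had a pileup of 2747 there. The sequences GL949746v1 and GL949752v1 had 1918 and 1784, at 120 and 33 bp from the site. The nearest summits of the other 7 had 465 to 524 and lay 260 to 297 bp away. Moved by the first shift, the intervals of these 7 covered most of the chromosome 19 interval 54189372-54191281. Their summits thus lay in the same stretch, but at another place in it, and are not set against the chromosome 19 summit. Whether they are the same site was not tested. The same holds for site F, in the same interval. It had 1465 on chromosome 19 and 1451 and 1428 on GL949746v1 and GL949752v1, whereas 6 of the other 7 had a summit 232 to 271 bp away, with 366 to 404. The remaining one, GL949753v2, had 468 at 94 bp. In each of these 7 no summit of that interval exceeded 524. GL949746v1 and GL949752v1 were also 2 of the 3 sequences, with KI270938v1, that held the sites further along, from LENG8 to site L. These sites were matched at the second shift of each sequence. Their distances are thus measured from a shift fitted to these few summits alone. LENG8 had 574 to 611 on these 3 and 612 on chromosome 19, LENG9 had 379 to 459 and 401, and CDC42EP5, of a partner of the GTPase CDC42, had 251 to 284 and 227. Site L had 86 and 103 on 2 alternates, 1 of them 237 bp from the site, and 74 on chromosome 19. NDUFA3, of a subunit of mitochondrial complex I, had 306 on chromosome 19. The only alternate summit near it, with 201 on GL949752v1, lay 493 bp from the site and may be another site. The summed pileup over the 10 copies was 8317 at CNOT3, 5723 at LENG1 and TMC4 and 1941 at RPS9. With summits beyond 200 bp counted, it was 1555 at PRPF31 and TFPT, 9893 at MBOAT7 and TSEN34 and 7088 at site F. Over the copies that held them it was 2392 at LENG8, 1642 at LENG9, 1026 at CDC42EP5 and 507 at NDUFA3, the last with a summit beyond 200 bp. The highest pileup of a single summit at the 13330 coding starts away from placed loci was 6829, a value not summed over copies. Anywhere on the assembled chromosomes, single summits reached 26143. Of the sums given from summits within 200 bp, only that at CNOT3 exceeded 6829. With summits beyond 200 bp counted, those at MBOAT7 with TSEN34 and at site F did too.

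**Figure D5:**
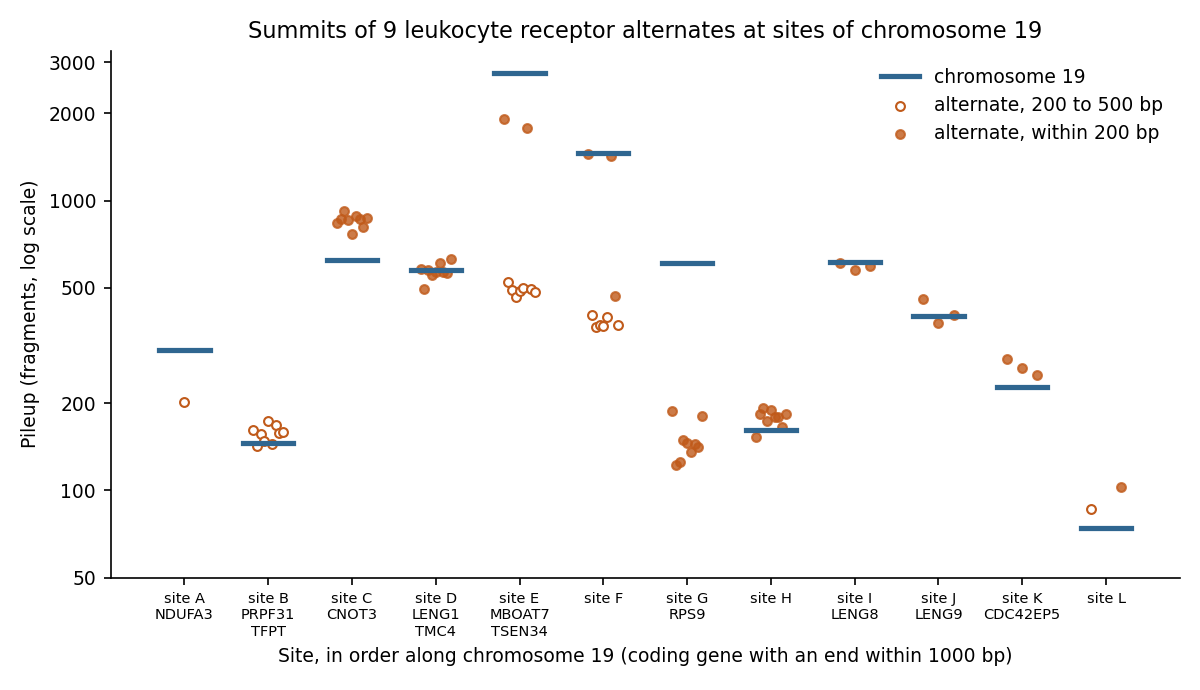
Pileup (log scale) at 12 sites of the leukocyte receptor region, in order along chromosome 19, named by coding genes with an end within 1000 bp. Points are the summits of the alternate sequences, filled within 200 bp of the site at the sequence's shift and open beyond it. A second shift was used for the sites from LENG8 onward. Bars are the assembled chromosome. The alternates exceed the bar at CNOT3 (768 to 923 against 624) and lie below it at RPS9 (122 to 188 against 610), and at MBOAT7 with TSEN34 only 2 points are filled.

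The white-cell receptor genes themselves had no summit near an end on chromosome 19. Over all protein-coding genes of the assembled chromosomes, 66.1% had an end with a summit no more than 1000 bp away. Of 35 genes of the leukocyte receptor region, 12 did (34.3%, Wilson 95% interval 20.8 to 50.8), all of them genes that are not leukocyte receptors, among them CNOT3, RPS9 and MBOAT7. None of the listed LILR, LAIR or KIR genes, nor FCAR, NCR1, OSCAR or TTYH1, had one. Gene positions on the 9 alternates were not used. The 24 of their summits that matched no chromosome 19 site were therefore not checked against these genes. Of 13 genes of the chromosome 17 inversion region, 8 had a summit. MAPT, the gene of tau, had 246 fragments, KANSL1, a chromatin regulator gene, 289, and NSF, of vesicle fusion, 276, while CRHR1, SPPL2C, STH, LRRC37A and WNT3 had none. Of 6 genes of the duplicated region on the long arm of chromosome 5, 5 had a summit. The motor neuron gene pair SMN1 and SMN2 had 224 and 222 and the pair SERF1A and SERF1B 55 and 56, each pair so alike that reads can go to either, GTF2H2 had 608 and NAIP none. Of 10 genes of chromosome 22 with a position on the assembled chromosome, 8 had a summit, from 49 fragments at APOBEC3A to 1050 at CABIN1, and CYP2D6 and CYP2D7 had none. GSTT1, also listed, has no such position in the gene table and no value is given. The counts of the last 3 lists are near the background, as far as lists this short can show. Of the marker lists, 6 of 10 mesenchymal genes had a summit (median of the highest enrichment 6.98), 3 of 6 epithelial (2.11), 2 of 5 blood (11.5), 1 of 2 neuronal (8.96) and 0 of 2 liver genes. The blood and neuronal medians, over 2 and 1 genes, were thus above the mesenchymal one.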

How the data were processed

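ATAC-seq had been done on 12 libraries, and 1 peak list for the whole series was analysed. The submitters' processing notes name fastp 0.20.0, Bowtie2 2.4.3, SAMtools, deepTools 3.5.0, MACS2 2.2.7.1 and the build hg38. How libraries were pooled, and how duplicates and reads with several equally good positions were treated, are not given in the sources used here, and the last could move reads between copies. Each line of the list holds the authors' score (10 times the −log10 q, truncated, in 99.8% of lines), their ratio of fold enrichment over background (column 7), their −log10 p, their −log10 q (column 9) and the offset of the summit. No column names a library (0 of 10). Lines with the same start and end were taken as summits of 1 interval.

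From the deposited enrichment and −log10 p, pileup and background were solved, with (pileup + 1)/(background + 1) as the enrichment and a Poisson upper tail as p. Every one of the 2423 pileups came out whole within 0.05. Placement by summit spacing used assembled summits in intervals of at most 10 kb. Both steps were tried on simulated data. For placement these were stretches of chromosome 16 itself, with some summits removed, others added and small shifts. They do not show how often real alternate sequences are placed rightly. Gene positions came from the RefSeq table of GRCh38.p14, a patch release of the build hg38. Of its 59792 genes, 831 stood under a parent chromosome with the position of another scaffold, or on no assembled nuclear chromosome, and were left out. Genes near matched summits were named by alternate enrichment, up to 30, with 6 at most per sequence. The alternate sequences named were the 12 with the most summits and those with the 10 highest enrichments. The members, gene lists and rules were chosen with earlier results of these data known. Values of some listed genes are not reported here. Python 3.11.15, NumPy 2.4.6, pandas 2.3.3, SciPy 1.17.1 and Matplotlib 3.10.9 were used. The alternatives were a stricter q, shorter intervals, 1 summit per interval, other match distances and other placement rules.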

Additional observations from a re-analysis of the deposited data

How the results depend on the processing

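The number of alternate sequences with a peak, 191, was 187 at a −log10 q of at least 10 and 191 without intervals over 10 kb. Counting each interval once took the 2423 summits to 1472. With the strongest summit of each interval, the median enrichment was 5.58, the median −log10 q 53.2 and the median pileup 133. At a −log10 q of at least 10 the median enrichment was 6.24 and the median pileup 175. In intervals of at most 10 kb the medians were 4.41, 35.4 and 110. The number of placed sequences moved most. It was 11 in the main rule, 14 within 20 bp (9 of them among the 11), 7 within 100 bp (all among the 11), 11 with at least 8 matched summits, and 1 when assembled summits in all intervals were used, and the cause of these shifts was not tested. With pileups also required to be within 25%, a rule chosen after seeing the data, it was 26. The median ratio of alternate to assembled pileup stayed between 1.00 and 1.01 under every alternative tried. No paired analysis was possible because the list holds no value per library, and leaving out replicates was not possible for the same reason. Pooled pileups give no replicate spread, and summits under a pileup of 35 are not seen.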

Other observations

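Requiring that matched summits also have pileups within 25% of each other placed 26 sequences, among them the 11 placed by spacing. Of the 15 added, 14 had their best shift by spacing alone at the same place, within 5.5 bp, though it had not passed the rule there. For the remaining one, chr17_KI270862v1_alt, spacing alone matched more summits elsewhere (8 against 6), so no gene is named from it. The closeness of the pileups is then set by the rule and is no result, but the positions name further genes, and these were chosen after the values were seen. On chr11_KI270832v1_alt 9 of 31 summits matched between 484667 and 588123 of chromosome 11. HRAS, the small GTPase gene, had a pileup of 705 on the alternate and 703 on the assembled copy, RNH1, of a ribonuclease inhibitor, had 2085 and 2047, and the microRNA host gene MIR210HG had 1269 and 1234. Both alternates of the chromosome 17 inversion region matched at its edge, from 45317244. MAP3K14, a kinase gene of the NF-κB pathway, had 1717 on chr17_GL000258v2_alt and 1737 on chr17_KI270908v1_alt, against 1819 on chromosome 17. PLEKHM1 had 507 on chr17_GL000258v2_alt, against 455 on chromosome 17. On chr1_GL383519v1_alt, CLK2, a splicing kinase gene, had 956 and 892 at one of its summits. On chr1_GL383518v1_alt, INTS3, of the Integrator complex, had 1315 and 1334, and its alternate enrichment, 19.5, was among the 10 highest of the summits described. The sequence with the highest enrichment, chr3_KI270784v1_alt, matched 10 of 25 summits in the reversed orientation, the only one of the 26 to do so.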
